A study of Arabidopsis thaliana with 6 samples.

Results

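Seedlings labelled as mutants of the histone acetyltransferase genes HAC1 and HAC5 were compared with wild-type seedlings of the accession Col-0, across all genes of the deposited expression table. The comparison was between 4 of the 6 libraries of the series, the pair labelled hac1hac5 and the pair labelled Col-0. It covered all 32548 gene IDs in the table, of which 23898 had enough signal to be tested. The hac1hac5 plants are labelled hac1-/-hac5-/-, so both genes are mutated in every tissue, and the Col-0 plants are labelled as wild type. The remaining libraries came from med8med25 plants, labelled med8-/-med25-/-, which carry mutations in 2 subunits of the Mediator complex. These libraries show where hac1hac5 differs from another mutant. They also enter the gene filter and the fit, and so every SE and adjusted p against Col-0. All plants were 12 days old, were raised on MS plates at 22 °C with 16 h of light and 8 h of dark, and received no treatment. The labels name no alleles and do not say whether the paired libraries came from separate batches of plants. The p-values therefore reflect the spread between these libraries alone, which may be technical.

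HAC1 and HAC5 belong to the plant CBP/p300 family. Proteins of this family add acetyl groups to lysines of histones, a mark of active chromatin, and are brought to genes by transcription factors, often together with Mediator, which connects those factors to RNA polymerase II. In Arabidopsis, HAC1 is known for its part in flowering time, in jasmonate responses with the factor MYC2, and in salicylate immunity with NPR1.

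Recovered depth was 33.9 and 36.8 M reads in the hac1hac5 libraries, 36.2 and 33.1 M in the Col-0 libraries and 24.9 and 32.3 M in the med8med25 libraries. Reads were not tagged by molecule, so depth speaks to counting error only. Values are the authors' normalized counts per gene, which are not divided by gene length and therefore compare samples, not genes. Over 18731 expressed genes the log2 difference between paired libraries of a genotype had an SD of 0.220 in hac1hac5, 0.173 in Col-0 and 0.299 in med8med25. The targeted genes stayed measurable, as they can when a mutation leaves part of the transcript. HAC1 had 2342 and 2875 normalized counts in the hac1hac5 libraries, against 3385 and 3529 in the Col-0 libraries (log2 change -0.41, SE 0.10, adjusted p = 0.011). HAC5 had 800.7 and 1087 in hac1hac5, against 1233 and 1190 in Col-0 (log2 change -0.38, SE 0.13, adjusted p = 0.05). Both genes were below Col-0 in both hac1hac5 libraries, by less than 2-fold. Growth or harvest that differed between the genotypes cannot be told apart from the mutations in any result given here.

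A gene was called changed when its limma adjusted p was under 0.05 and its fold at least 2, and "rose" and "fell" below mean this. In hac1hac5, 1709 genes rose and 1322 fell, 7.15% and 5.53% of the genes tested and 12.7% together. The genes that rose took 7.96% and 8.88% of all normalized counts in the hac1hac5 libraries, against 2.02% and 1.97% in the Col-0 libraries. Those that fell took 2.29% and 2.37% in hac1hac5, against 5.72% and 5.83% in Col-0. These shares describe genes chosen by the same contrast. Changed genes were most frequent among genes with a mean of 10 to 100 normalized counts over the libraries compared, where 11.7% rose and 10.8% fell, and less frequent between 1000 and 10000, where 5.7% rose and 3.13% fell. Scaling each library to its total count in place of the authors' factors moved the median log2 change of all genes to 0.16, against -0.02 in the test reported. With totals 2132 genes rose and 989 fell, so the share of rising genes among those changed was 68.3%, against 56.4%. Fallen genes close to 2-fold lost their calls with totals. Of the genes named below these were NIA2, CA2, NRT1.1, PORB, MUTE, CER4, PAD3, SNRK2.9, TUB5, CYCD1;1, SIP1;2, RR16, CYP707A2, GA20OX2, BRI1 and NIA1, which came to log2 changes of -0.83 to -0.99 on that scale.

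**Figure D1:**
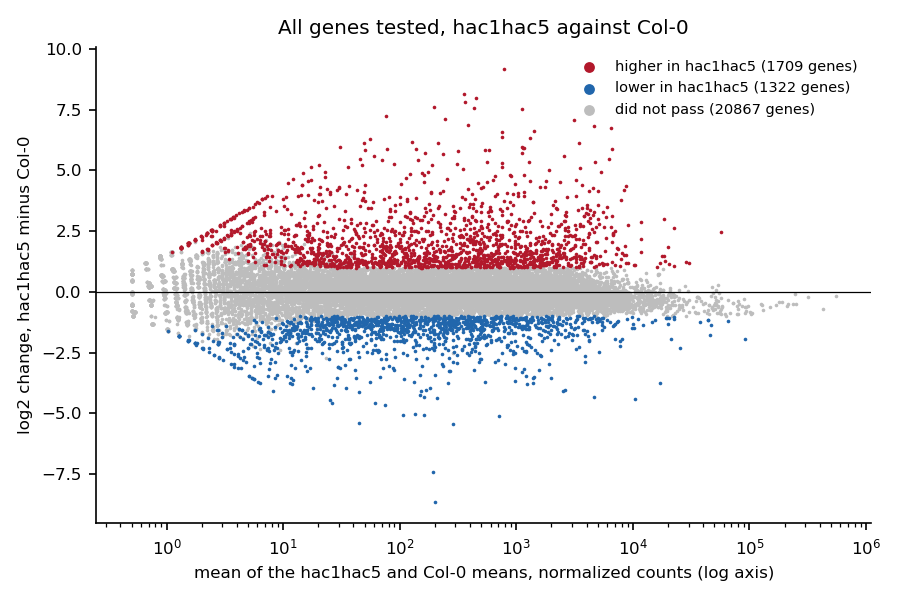
Each point is 1 of 23898 tested genes, with the mean of the hac1hac5 and Col-0 means on the x axis (normalized counts, log scale, values under 0.5 drawn at 0.5) and the log2 change of hac1hac5 over Col-0 on the y axis. Red points are the 1709 genes that rose, blue points the 1322 that fell and grey points all others; most genes lie between -1 and 1, and the called genes at or beyond these values.

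The sequence before the gene start differed between rising and falling genes. Among 22591 protein-coding genes with a promoter window, taken as the 250 bases before the RefSeq gene start, the letters CGCGTT stood on either strand in 7.85% of the genes that rose, in 1.34% of those that fell and in 2.78% of all. CGCGTT is the core of the rapid stress response element, a promoter element of genes induced within minutes of wounding and other stresses and known to bind calmodulin-binding CAMTA factors. Of the 268 genes that rose at least 8-fold, 12.7% held it. The share of genes that rose was 6.68% of 21964 promoters with no match, 18.1% of 552 with 1 match and 33.3% of 75 with 2 or more. The share that fell ran the other way, at 5.69%, 2.90% and 1.33%. The palindrome AACGCGTT holds the letters on both strands and counts as 2 matches. A match describes the letters in the window and does not show that a factor binds there.

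The promoters shown next are those of 3 genes that rose, chosen after their values were seen for 2 or more matches, a mean of at least 200 normalized counts in hac1hac5 or Col-0, a window free of other annotated genes and a place among the largest changes. TCH2, which encodes the touch-induced calmodulin-like protein CML24, had 7107 and 8460 normalized counts in hac1hac5, against 728.7 and 773.7 in Col-0 (log2 change 3.37, SE 0.11), and 69.4% of its 50-base exon windows match or overlap no other annotated gene (called unshared windows below). EXLA3, an expansin-like gene, had 204.3 and 276.5, against 28.04 and 25.8 in Col-0 (log2 change 3.10, SE 0.29). AT1G63750, annotated as a TIR-NBS-LRR disease resistance gene, had 1054 and 1428, against 236.7 and 253.2 in Col-0 (log2 change 2.32, SE 0.23). Each of the 3 lay higher in both hac1hac5 libraries than in either Col-0 library, which their choice makes likely. The sequences are from RefSeq, build TAIR10.1, 5′ to 3′ on the strand of the gene, with the matches in capitals. The TCH2 window is chr5:14999620-14999869 (minus strand), with 4 matches that begin 84, 82, 65 and 63 bases before the gene start. The EXLA3 window is chr3:16892452-16892701 (plus strand), with separate matches at 144 and 80 bases, and the AT1G63750 window is chr1:23650590-23650839 (plus strand), with matches at 50 and 48 bases.
TCH2: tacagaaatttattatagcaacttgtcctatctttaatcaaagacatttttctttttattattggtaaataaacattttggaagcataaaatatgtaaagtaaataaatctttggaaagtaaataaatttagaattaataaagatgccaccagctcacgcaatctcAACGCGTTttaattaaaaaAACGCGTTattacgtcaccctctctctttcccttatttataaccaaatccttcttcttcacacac
EXLA3: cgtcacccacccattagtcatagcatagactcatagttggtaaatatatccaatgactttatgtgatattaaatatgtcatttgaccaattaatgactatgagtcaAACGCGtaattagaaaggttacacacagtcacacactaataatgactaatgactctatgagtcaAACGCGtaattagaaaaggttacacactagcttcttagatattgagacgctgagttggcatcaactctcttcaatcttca
AT1G63750: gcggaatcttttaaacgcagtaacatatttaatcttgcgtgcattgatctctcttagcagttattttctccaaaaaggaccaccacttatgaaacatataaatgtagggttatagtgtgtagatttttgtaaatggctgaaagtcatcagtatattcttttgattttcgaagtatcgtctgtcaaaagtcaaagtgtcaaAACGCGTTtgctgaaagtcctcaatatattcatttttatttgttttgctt

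Other elements were searched in the same windows. The W-box TTGACC, the core site of WRKY factors, stood in 18.7% of the genes that rose, 7.81% of those that fell and 12.3% of all, and its variant TTGACT in 27.1%, 14.9% and 19.1%. The G-box CACGTG, a site of bHLH and bZIP factors, stood in 13.5%, 7.10% and 7.24% of the same sets, and the abscisic acid element ACGTGGC, which can overlap it, in 7.16%, 3.31% and 3.80%. Among the genes that fell, CACATG, a site bound by bHLH factors, stood in 17.3%, against 11.3% of all genes and 12.2% of those that rose. The share of genes that fell was 5.23% with no CACATG, 8.42% with 1 match and 9.42% with 2 or more. Site II TGGGCC, typical of genes for ribosomal and other housekeeping proteins, was less frequent in both directions, at 7.78% of rising and 5.76% of falling genes against 15.3% of all. The dehydration element core CCGAC stood in 14.6% of rising, 9.94% of falling and 12.5% of all promoters, the GCC-box GCCGCC of ERF factors in 2.32%, 1.42% and 1.89%, the evening element AAATATCT of the clock in 5.84%, 6.16% and 4.93%, the TATA element TATAAA in 48.6%, 51.9% and 46.7%, the telo-box AAACCCTA in 2.32%, 2.37% and 3.58%, and the I-box GATAAG in 13.0%, 10.7% and 12.3%.

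**Figure D2:**
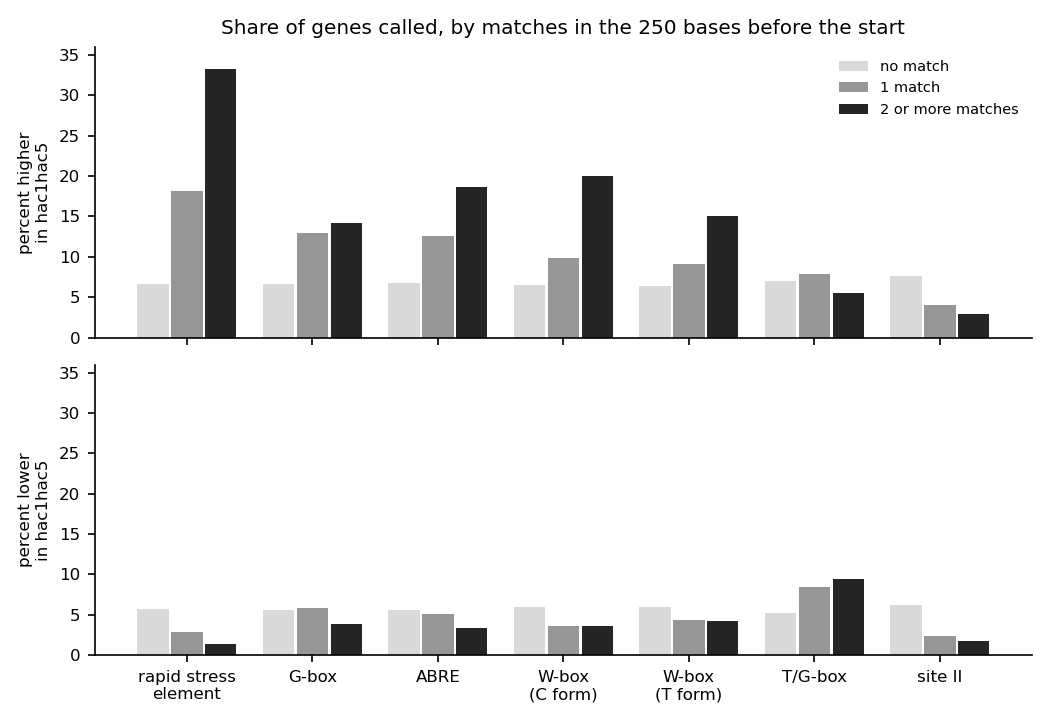
Percent of protein-coding genes that rose (upper panel) and fell (lower panel) in hac1hac5 by the number of matches in the 250 bases before the gene start, for 7 motifs. For CGCGTT the bars rise from no match (6.68%) through 1 (18.1%) to 2 or more (33.3%) in the upper panel and decline in the lower. For CACATG, which the axis labels T/G-box, the bars of the lower panel climb from 5.23% through 8.42% to 9.42%.

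CACATG is shown in the 2 genes with the largest decreases under the same criteria, which are both auxin-related. IAA6, an auxin-induced Aux/IAA repressor, had 37.35 and 69.74 normalized counts in hac1hac5, against 421.5 and 390.8 in Col-0 (log2 change -2.97, SE 0.30). SAUR26, of a family of small auxin-induced RNAs that promote cell expansion, had 152.0 and 125.2 in hac1hac5, against 488.1 and 481.9 in Col-0 (log2 change -1.81, SE 0.24). Both were lower in each hac1hac5 library than in either Col-0 library, which their choice makes likely. The IAA6 window is chr1:19673653-19673902 (minus strand), with matches at 172 and 73 bases before the gene start, and the SAUR26 window is chr3:982807-983056 (plus strand), with matches at 150 and 77 bases. The capitals mark CATGTG, the reverse complement of CACATG.
IAA6: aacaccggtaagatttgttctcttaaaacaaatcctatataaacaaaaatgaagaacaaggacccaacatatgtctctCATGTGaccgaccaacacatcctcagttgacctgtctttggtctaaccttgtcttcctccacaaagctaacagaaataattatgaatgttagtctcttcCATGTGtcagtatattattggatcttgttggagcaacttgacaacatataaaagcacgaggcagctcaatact
SAUR26: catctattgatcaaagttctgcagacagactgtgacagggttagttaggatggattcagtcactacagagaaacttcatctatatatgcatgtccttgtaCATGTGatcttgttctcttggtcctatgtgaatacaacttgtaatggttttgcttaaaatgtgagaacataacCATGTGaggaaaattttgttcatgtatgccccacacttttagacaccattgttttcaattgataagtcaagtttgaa

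The largest gain in normalized counts was at P5CS1, the enzyme that commits glutamate to proline, an osmolyte of dry and cold-treated plants. P5CS1 had 92036 and 101300 normalized counts in the hac1hac5 libraries, against 17384 and 18000 in the Col-0 libraries (log2 change 2.45, SE 0.10, adjusted p = 1.2e-06). It had 8456 and 8353 in med8med25, below Col-0, so the difference between the mutants was larger (log2 change 3.52 for hac1hac5 over med8med25, adjusted p = 8.4e-07). The dehydrin ERD10, a hydrophilic protein of dehydrated cells, had 34231 and 43316 in hac1hac5, against 6467 and 6077 in Col-0 (log2 change 2.62, SE 0.26, adjusted p = 1.2e-04). A second dehydrin, ERD14, had 28120 and 32371, against 14860 and 13966 in Col-0 (log2 change 1.07, SE 0.11), and was under 2-fold without the second hac1hac5 library (0.96). ERD15, a small regulator of abscisic acid responses, had 38409 and 41698, against 17253 and 17461 in Col-0 (log2 change 1.21, SE 0.13). SRC2, a C2-domain protein whose soybean relative is induced by cold, had 18690 and 22642, against 2742 and 2824 in Col-0 (log2 change 2.89, SE 0.16). ADC2, the arginine decarboxylase of polyamine synthesis under stress, had 39926 and 43871, against 18408 and 18216 in Col-0 (log2 change 1.19, SE 0.13). For these 6 genes the genotypes did not overlap, which their choice for a large difference makes likely.

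The other large gains were of mixed roles. HSPRO2, a contributor to basal resistance against bacteria, had 30106 and 35862 normalized counts in hac1hac5, against 4258 and 3868 in Col-0 (log2 change 3.02, SE 0.10, adjusted p = 6.4e-07). PEN3, an ABC transporter of nonhost resistance at the plasma membrane, had 28649 and 34655, against 8510 and 8914 in Col-0 (log2 change 1.85, SE 0.21). SZF1, a CCCH zinc-finger protein induced by salt and chitin, had 15021 and 18424, against 823.5 and 797.5 in Col-0, the steepest of the 12 largest gains (log2 change 4.36, SE 0.10, adjusted p = 1.5e-07). The polyubiquitin gene UBQ11 had 24423 and 27505, against 9373 and 9342 in Col-0 (log2 change 1.47, SE 0.16), and 88.5% of its windows are unshared. ENODL2, an early nodulin-like protein of the cell surface, had 24856 and 28569, against 10896 and 11162 in Col-0 (log2 change 1.27, SE 0.17). AT4G32020, a gene of no known role, had 26141 and 28036, against 9563 and 9683 in Col-0 (log2 change 1.49, SE 0.12). Together the 12 gains took 1.31% and 1.45% of the hac1hac5 libraries, against 0.345% and 0.339% of the Col-0 libraries.

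The largest losses included genes of carbon dioxide supply, water channels, nitrate reduction and glucosinolate breakdown. CA1, the main carbonic anhydrase of the chloroplast, had 33049 and 42069 normalized counts in hac1hac5, against 137700 and 150200 in Col-0 (log2 change -1.95, SE 0.18, adjusted p = 9.8e-05). CA2, a second beta carbonic anhydrase, had 24873 and 29975, against 60293 and 59695 in Col-0 (log2 change -1.14, SE 0.13). RBCS2B, a small subunit of Rubisco with 78.6% unshared windows, had 24528 and 27678, against 65237 and 69520 in Col-0 (log2 change -1.37, SE 0.15). The vacuolar water channels TIP1;2 and TIP2;1 fell alike. TIP1;2 had 38441 and 39707, against 90228 and 91036 in Col-0 (log2 change -1.21, SE 0.13), and TIP2;1 had 21585 and 23342, against 53214 and 52661 in Col-0 (log2 change -1.24, SE 0.13). NIA2, the major nitrate reductase, had 25365 and 30298, against 59734 and 62115 in Col-0 (log2 change -1.14, SE 0.18, adjusted p = 0.0014).

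Among the other losses, ESM1, which steers glucosinolate breakdown toward isothiocyanates, had 2319 and 2399 normalized counts in hac1hac5, against 31034 and 32492 in Col-0 (log2 change -3.75, SE 0.11, adjusted p = 2.9e-07). TGG2, a myrosinase that starts this breakdown and is stored in myrosin cells, had 6814 and 10390, against 38488 and 45528 in Col-0 (log2 change -2.31, SE 0.18). AT5G02760, a protein phosphatase of the PP2C class outside clade A, had 910.6 and 987.1, against 19848 and 20085 in Col-0, the steepest of the 12 largest losses (log2 change -4.39, SE 0.19). GASA6, a gibberellin-regulated peptide that promotes elongation, had 7553 and 9786, against 35764 and 31120 in Col-0 (log2 change -1.96, SE 0.13), and 76.1% of its windows are unshared. XYL1, an alpha-xylosidase that trims xyloglucan in the wall, had 12037 and 10830, against 27820 and 28662 in Col-0 (log2 change -1.31, SE 0.09). AT2G10940, annotated as a lipid-transfer-like protein, had 20785 and 20556, against 68501 and 73826 in Col-0 (log2 change -1.78, SE 0.21). In none of the 12 did a hac1hac5 library reach a Col-0 library, which their choice for a large difference makes likely. Together the 12 losses took 0.713% and 0.784% of the hac1hac5 libraries, against 1.97% and 2.02% of the Col-0 libraries.

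**Figure D3:**
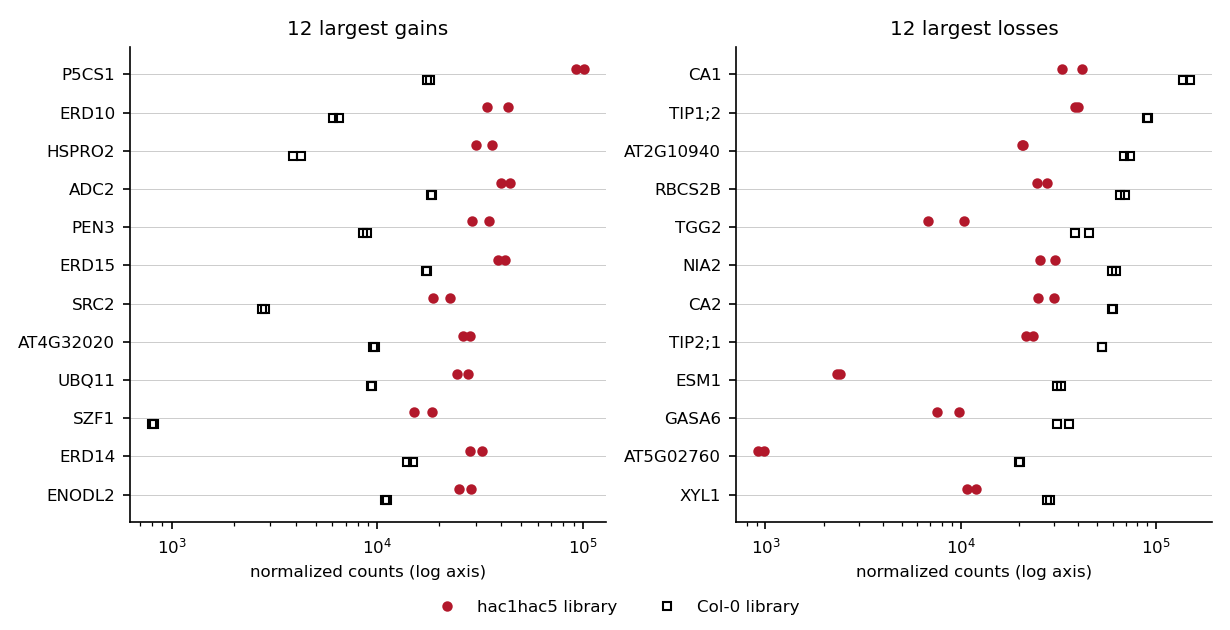
Normalized counts (x axis, log scale) of the 12 genes with the largest gain (left) and the 12 with the largest loss (right) in hac1hac5. Filled red circles are the 2 hac1hac5 libraries and open squares the 2 Col-0 libraries of each gene. The marks of the genotypes do not overlap in any row, which the choice of these genes makes likely. The gap is widest for SZF1 among gains and for AT5G02760 among losses.

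A small set of genes was close to silent in 1 genotype and well expressed in the other, taken as at most 3 normalized counts in both libraries of one and at least 50 in both of the other. Of these, 17 were near 0 in Col-0 and 2 near 0 in hac1hac5. DDF1, an AP2-domain factor of the DREB type, had 497.5 and 944.7 in hac1hac5, against 1.928 and 2.149 in Col-0. RRTF1, an ERF factor of redox responses with 26.3% unshared windows, had 575.8 and 836.8, against 0.9555 and 2.131 in Col-0. AT5G21960, another gene with an AP2 domain, had 143.3 and 162.2 and was listed at 0 in both Col-0 libraries. All 3 stood far above Col-0 in both hac1hac5 libraries, which the rule for this set requires. JAZ8, a jasmonate repressor of the degradation-resistant kind, had 109.1 and 197.9, against 1.937 and 1.093 in Col-0. A related gene, AT3G22275, had 56.83 and 58.58, against 1.928 and 2.149 in Col-0. The phosphatase gene AT1G07160 of the PP2C class had 91.55 and 129.9, against 0.9711 and 0.008795 in Col-0.

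The other members of the set near 0 in Col-0 were AT4G27654, AT2G32200, AT5G05220, AT3G09870 of the SAUR family, AT2G22760 of the bHLH family, AT3G44870, AT3G56790, AT1G20310, AT4G14450, AT5G03204 and AT5G53710. AT4G27654 was the highest of them, at 746.5 and 1036 in hac1hac5, against 2.903 and 2.165 in Col-0. AT2G32200 had 390.0 and 387.4, against 2.921 and 0.0262 in Col-0, and AT5G05220 had 232.5 and 275.2, against 2.903 and 2.165 in Col-0. Near 0 in hac1hac5 were AT1G64795 and AT1G75945, neither with a known role. AT1G75945 had 1.822 and 0.8188 in hac1hac5, against 395.3 and 372.5 in Col-0, and was at 511.5 and 507.6 in med8med25. AT1G64795 was listed at 0 in both hac1hac5 libraries, against 397.2 and 401.4 in Col-0, and had 2.539 and 0.914 in med8med25. In AT1G64795 6.58% of the windows are unshared. AT1G75945 was thus low in hac1hac5 alone, and AT1G64795 in both mutants.

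The remaining results follow 64 lists of genes with a shared role or family name, read against the 7.15% of tested genes that rose, the 5.53% that fell and the median log2 change of -0.02 over all genes. A family list holds only the genes whose symbol or alias carries the family name. It can thus be a part of the family, and its shares are those of the list. Genes named in a list are its 3 changed members with the largest changes and a mean of at least 50 normalized counts. Any other was chosen after its values were seen.

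**Figure D4:**
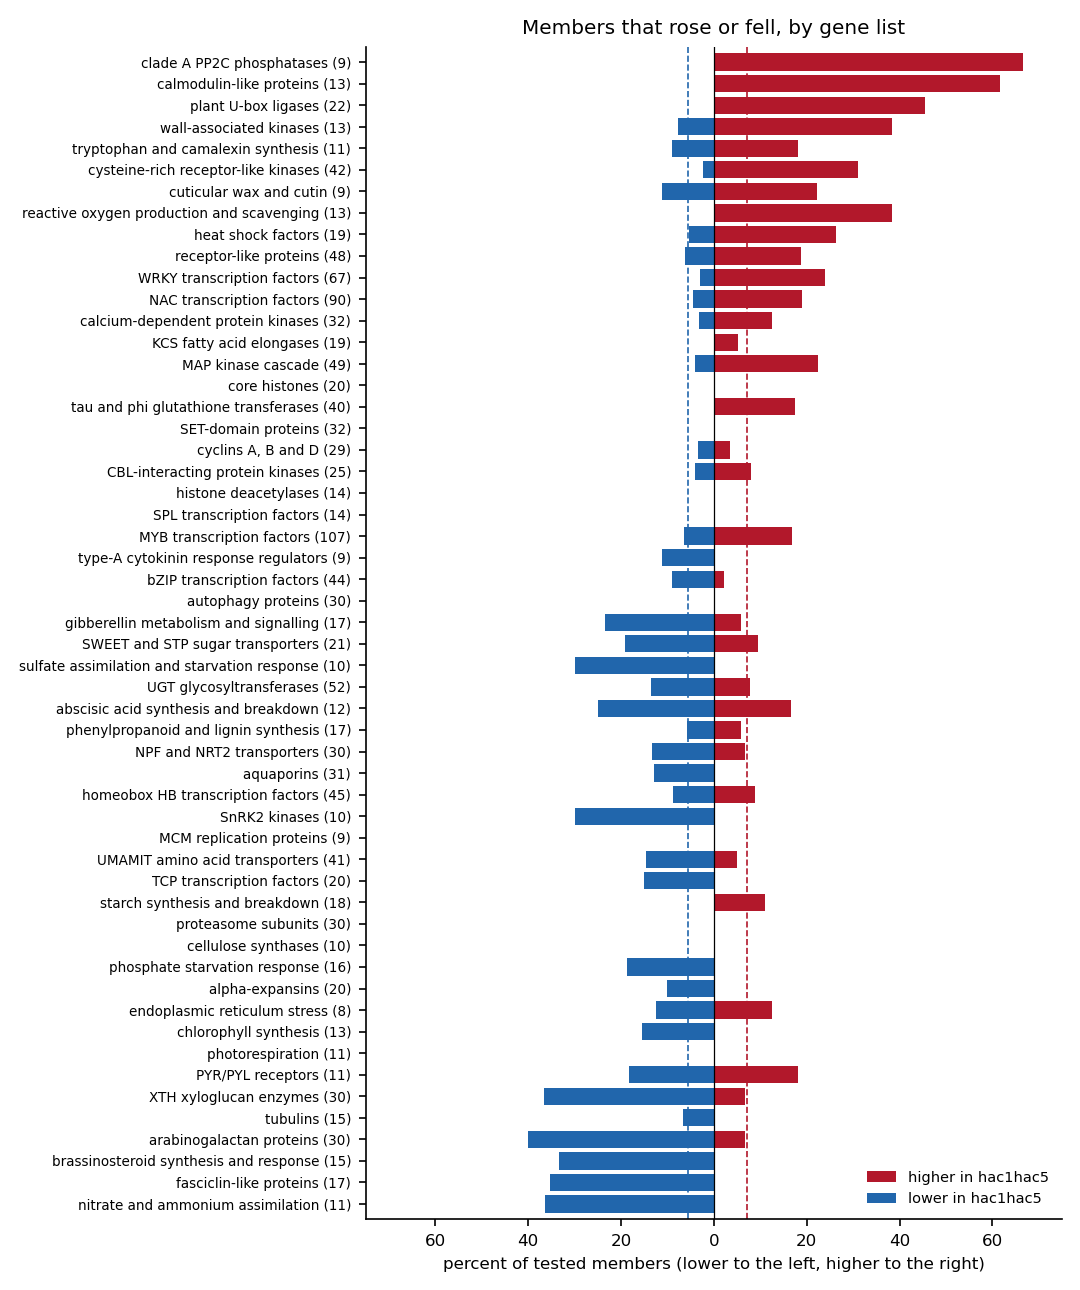
Percent of tested members that rose (red, to the right) and fell (blue, to the left) in hac1hac5 for each list with at least 8 tested members (number in brackets, markers and reference genes left out), ordered by median log2 change. Dashed lines mark the shares over all genes (7.15% and 5.53%). The calmodulin-like, clade A phosphatase and U-box ligase lists extend far to the right. The XTH, arabinogalactan, fasciclin-like and brassinosteroid lists extend to the left.

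Of 3 calcium signalling lists, the calmodulin-like proteins had the largest share of risen members. Calmodulin-like proteins bind calcium and pass its signal to targets, and 8 of 13 tested members rose and none fell, with a median log2 change of 1.34. CML37 had 993.0 and 1320 normalized counts in hac1hac5, against 19.33 and 18.27 in Col-0 (log2 change 5.85, SE 0.20, adjusted p = 7.1e-07). CML38 had 3132 and 4241, against 102.4 and 121.1 in Col-0 (log2 change 5.02, SE 0.35), and CML24 is the TCH2 gene shown above. The other risers were CML39 (4.02), CML12 (3.24), CML23 (2.83), CML9 (1.34) and CML42 (1.16), in log2 change. Of 32 calcium-dependent protein kinases, which join a calcium sensor to a kinase, 4 rose and 1 fell. CPK32 had 7151 and 9559, against 1337 and 1223 in Col-0 (log2 change 2.69, SE 0.16), and CPK28, which tunes immune receptor signalling, had 4416 and 6167, against 1004 and 1075 in Col-0 (log2 change 2.33, SE 0.18). CPK15 had 389.6 and 452.6, against 166.4 and 130.2 in Col-0 (log2 change 1.51, SE 0.22). CBL-interacting kinases were near the shares over all genes, with 2 higher and 1 lower of 25. CIPK2 had 439.1 and 524.2, against 100.6 and 83.9 in Col-0 (log2 change 2.37, SE 0.16), and CIPK25 had 109.0 and 122.5, against 459.1 and 462.5 in Col-0 (log2 change -1.99, SE 0.13). CIPK5 changed by 1.42 and was called in none of the 4 tests that left out a library (1.27 to 1.56).

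Kinases and receptors of the cell surface and the cytosol followed. In the MAP kinase cascade, the relay of kinases behind many stress receptors, 11 of 49 members rose and 2 fell. MAPKKK18, an abscisic acid-induced kinase, had 983.0 and 995.4 normalized counts in hac1hac5, against 61.02 and 39.99 in Col-0 (log2 change 4.30, SE 0.27, adjusted p = 1.2e-05). MAPKKK21 had 87.37 and 100.1, against 5.791 and 6.434 in Col-0 (log2 change 3.73, SE 0.30). MPK11, a relative of the immune kinase MPK4, had 134.0 and 50.02, against 14.55 and 7.628 in Col-0 (log2 change 2.84, SE 0.54), and its call was lost without the second Col-0 (2.42) or the first hac1hac5 library (2.14). The members that fell were MKK7 (-2.33) and MPK13 (-1.32), and MKK7 was not called without the first Col-0 (-1.74) or the second hac1hac5 library (-1.79). Of 42 cysteine-rich receptor-like kinases 13 rose and 1 fell, and the changed number was 8 without the second Col-0 library, 9 without the first hac1hac5 library and 8 without the second. CRK14 had 463.4 and 577.8, against 66.78 and 50.65 in Col-0 (log2 change 3.13, SE 0.21). CRK11 had 1996 and 2448, against 273.4 and 312.1 in Col-0 (log2 change 2.92, SE 0.18), and CRK10 had 6476 and 8634, against 984.7 and 1102 in Col-0 (log2 change 2.84, SE 0.26).

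Wall-associated kinases, which sense pectin, had 5 higher and 1 lower of 13. WAKL2 had 743.6 and 1093 normalized counts in hac1hac5, against 86.11 and 67.83 in Col-0 (log2 change 3.54, SE 0.28). WAKL10 had 182.7 and 148.4, against 16.44 and 15.05 in Col-0 (log2 change 3.31, SE 0.27), and WAKL6 had 595.1 and 758.7, against 158.5 and 153.5 in Col-0 (log2 change 2.1, SE 0.14). WAK2 went the other way, with 481.6 and 410.1 in hac1hac5 against 1436 and 1426 in Col-0 (log2 change -1.69, SE 0.12) and 68.2% unshared windows. Receptor-like proteins, which perceive microbial and developmental signals without a kinase domain, had 9 higher and 3 lower of 48, and 7 changed members without the first hac1hac5 library. RLP12 had 274.9 and 328.7, against 99.59 and 90.26 in Col-0 (log2 change 1.65, SE 0.17), and RLP31 had 566.0 and 566.6, against 188.5 and 184.6 in Col-0 (log2 change 1.6, SE 0.15). RLP38 was uneven within both genotypes, at 117.2 and 27.47 in hac1hac5 and 17.49 and 5.548 in Col-0. Its log2 change of 2.40 was not called without either Col-0 library (3.15 and 1.65) or without the first hac1hac5 library (1.37).

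Plant U-box ligases attach ubiquitin to target proteins, and several restrain immune and drought signalling. Of 22 tested, 10 rose and none fell, with a median log2 change of 0.77. PUB19, a drought-response ligase, had 11101 and 14932 normalized counts in hac1hac5, against 233.0 and 202.0 in Col-0 (log2 change 5.88, SE 0.95, adjusted p = 0.0017). The same gene was at 6138 and 432.8 in the med8med25 libraries, a spread that enters its SE, and it was not called without the second hac1hac5 library (5.67, adjusted p = 0.057). PUB24 had 994.3 and 1168, against 96.66 and 94.47 in Col-0 (log2 change 3.48, SE 0.21), and PUB23, its close relative with 65.9% unshared windows, had 899.8 and 1299, against 194.2 and 210.2 in Col-0 (log2 change 2.41, SE 0.22). The third of these immune regulators, PUB22, changed by 2.33. Subunits of the proteasome, which degrades ubiquitinated proteins, did not move by 2-fold in any of 30 cases. At any size 22 of the 30 were lower (median log2 change -0.30) at an adjusted p under 0.05, a test that 38.4% of all genes passed in either direction, 17.4% upwards and 21.0% downwards. With total-count scaling 6 of the 30 were lower.

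In several transcription factor families more members rose than fell. Of 67 WRKY factors, regulators of defence genes, 16 rose and 2 fell. WRKY40 had 4543 and 5447 normalized counts in hac1hac5, against 112.2 and 91.45 in Col-0 (log2 change 5.60, SE 0.12, adjusted p = 1.2e-07). Its partner WRKY18 had 2325 and 2710, against 117.1 and 94.68 in Col-0 (log2 change 4.56, SE 0.17), and WRKY53, a regulator of leaf senescence with 76.7% unshared windows, had 948.1 and 1181, against 41.51 and 49.26 in Col-0 (log2 change 4.52, SE 0.45). Those that fell were WRKY12 (-1.64) and WRKY49 (-1.57), and WRKY12 was called in 1 of the 4 tests that left out a library (-1.45 to -1.75 in the others). Of 90 NAC factors 17 rose and 4 fell. RD26, an abscisic acid-induced NAC factor of drought responses, had 6258 and 7342, against 778.0 and 771.7 in Col-0 (log2 change 3.13, SE 0.38). NAC019 had 567.6 and 831.6, against 93.72 and 98.69 in Col-0 (log2 change 2.82, SE 0.29), and NAC036 had 461.5 and 423.3, against 88.13 and 56.19 in Col-0 (log2 change 2.63, SE 0.22).

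MYB factors had 18 higher and 7 lower of 107, and 15 changed members without the first Col-0 or the second hac1hac5 library. MYB15, a cold and defence lignin regulator, had 314.5 and 386.5 normalized counts in hac1hac5, against 17.36 and 22.46 in Col-0 (log2 change 4.07, SE 0.20). MYB96, an abscisic acid-dependent activator of wax synthesis, had 7244 and 9285, against 883.3 and 928.2 in Col-0 (log2 change 3.18, SE 0.25), and MYB75, the anthocyanin activator also named PAP1, had 183.3 and 174.6, against 22.21 and 24.65 in Col-0 (log2 change 2.88, SE 0.25). Heat shock factors had 5 higher and 1 lower of 19. HSFA6A, induced by salt and drought, had 293.1 and 325.0, against 43.51 and 39.77 in Col-0 (log2 change 2.86, SE 0.32), and HSFA8 had 325.8 and 478.4, against 133.5 and 103.3 in Col-0 (log2 change 1.74, SE 0.23). HSFA2, the factor that sustains the heat response, was the one that fell, with 32.64 and 25.62 in hac1hac5 against 98.73 and 71.15 in Col-0 (log2 change -1.50, SE 0.26). Among 45 homeobox genes of the HB series 4 rose and 4 fell, against 5 and 2 with total-count scaling. HB-12 and HB-7, growth regulators that abscisic acid and drought induce, both rose. HB-12 had 4135 and 5035, against 650.6 and 560.5 in Col-0 (log2 change 2.92, SE 0.15), and HB-7 had 7266 and 8732, against 2007 and 1820 in Col-0 (log2 change 2.06, SE 0.11). HB52, an elongation regulator, had 45.1 and 46.52 in hac1hac5, against 161.5 and 132.3 in Col-0 (log2 change -1.65, SE 0.18).

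The bZIP family had 1 higher and 4 lower of 44 (median -0.01). BZIP61 had 1557 and 1606 normalized counts in hac1hac5, against 8477 and 8988 in Col-0 (log2 change -2.46, SE 0.08, adjusted p = 4.2e-07). Its relative BZIP34 had 875.6 and 887.8, against 2922 and 3029 in Col-0 (log2 change -1.75, SE 0.11). BZIP60, the factor of the endoplasmic reticulum stress response, rose to 3820 and 4695, against 1054 and 1113 in Col-0 (log2 change 1.97, SE 0.23). In the list for that response BZIP60 was the riser among 8 genes. At any size 2 of the 8 were higher and 6 lower (median -0.42), or 2 and 3 with total-count scaling. The chaperone gene BIP3 was the one that fell there (-2.13), at 8.987 and 10.37 in hac1hac5 against 84.47 and 24.31 in Col-0. BIP3 was not called without the first Col-0 (-1.25), the first hac1hac5 (-2.03) or the second hac1hac5 library (-2.22), nor by limma voom (-1.99 on deposited values, -2.2 on recovered reads). TCP factors had 3 lower of 20, TCP18 (-3.56), TCP1 (-2.88) and TCP12 (-1.49), all weakly expressed; TCP18, also named BRC1, restrains branching. None of the 3 was called without the second Col-0 library, and 1 was without the first hac1hac5 library. No SPL factor of 14 changed.

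Around abscisic acid, the hormone of drought, the pathway moved unevenly by role. Its receptors, the PYR/PYL proteins, bind the hormone and then inhibit the clade A PP2C phosphatases, which otherwise keep SnRK2 kinases inactive. Of 9 clade A phosphatases 6 rose and none fell, with a median log2 change of 1.67. HAI1 had 6322 and 7263 normalized counts in hac1hac5, against 203.0 and 195.4 in Col-0 (log2 change 5.08, SE 0.36, adjusted p = 2.2e-05). HAI2 had 935.2 and 1266, against 115.8 and 158.4 in Col-0 (log2 change 3.0, SE 0.68), and PP2CA had 10956 and 12749, against 2105 and 2071 in Col-0 (log2 change 2.50, SE 0.49). The med8med25 libraries differed from each other at both, 389.0 and 61.31 for HAI2 and 7277 and 1859 for PP2CA, which widens the SE. Neither was called when any 1 of the 4 libraries was left out (2.77 to 3.22 for HAI2 and 2.39 to 2.61 for PP2CA), and the count of the list was 3 without the second hac1hac5 library. HAB1 (2.07), ABI2 (1.67) and ABI1 (1.47) were the other risers, and ABI1 was not called without the second hac1hac5 library (1.32).

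The receptors and the SnRK2 kinases did not rise as a group. Of 11 PYR/PYL receptors tested 2 rose and 2 fell. At any size 2 of the 11 were higher and 7 lower (median log2 change -0.57), or 2 and 6 with total-count scaling. PYL7, with 44.2% unshared windows, had 942.4 and 945.4 normalized counts in hac1hac5, against 227.2 and 204.1 in Col-0 (log2 change 2.13, SE 0.10), and PYL2 had 28.68 and 39.04, against 125.7 and 111.8 in Col-0 (log2 change -1.79, SE 0.24). PYL9 changed by 1.02 and by 0.96 without the second Col-0 library. PYL3 was listed at 0 in both hac1hac5 libraries, against 7.731 and 7.522 in Col-0. Of 10 SnRK2 kinases none rose and 3 fell, against 1 higher and 2 lower with total-count scaling. This list was drawn by family name, whether or not a kinase acts in abscisic acid signalling. Its counts are thus not those of the pathway's kinases alone. SNRK2.5, with 76.6% unshared windows, had 277.7 and 211.0, against 812.1 and 649.8 in Col-0 (log2 change -1.58, SE 0.17), SNRK2.7 changed by -1.33 and SNRK2.9 by -1.17.

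Enzymes that make and break abscisic acid changed in both directions. NCED3, the stress-induced enzyme that limits synthesis, had 5344 and 5768 normalized counts in hac1hac5, against 770.2 and 866.9 in Col-0 (log2 change 2.76, SE 0.42). CYP707A3, which hydroxylates and so inactivates the hormone, had 1959 and 2411, against 116.9 and 132.9 in Col-0 (log2 change 4.11, SE 0.24). Its relative CYP707A2 fell, with 109.2 and 109.3 in hac1hac5 against 253.3 and 236.2 in Col-0 (log2 change -1.16, SE 0.20; -0.98 with total-count scaling). CYP707A4 changed by -1.34 and was not called without the second Col-0 (-1.14) or the first hac1hac5 library (-0.97). NCED5 changed by -1.75 and was not called without the second Col-0 (-1.44) or the first hac1hac5 library (-1.45). This made 2 higher and 3 lower of 12, against 3 higher and 2 lower with total-count scaling. AAO3, the oxidase of the last synthesis step, had 1619 and 1829 in hac1hac5, against 853.4 and 882.1 in Col-0, just under 2-fold (log2 change 0.99, and 1.17 with total-count scaling).

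The growth hormone lists differed from each other. Of 15 genes of brassinosteroid synthesis and response, which drive cell elongation, 5 fell and none rose, with a median log2 change of -0.82. BR6OX2, the last oxidase of brassinolide synthesis, had 234.1 and 201.9 normalized counts in hac1hac5, against 2489 and 2629 in Col-0 (log2 change -3.55, SE 0.10, adjusted p = 3.2e-07). PRE5, a small HLH protein that promotes elongation, had 23.61 and 17.01, against 109.2 and 115.8 in Col-0 (log2 change -2.43, SE 0.29). BAS1, which inactivates brassinosteroids, had 394.3 and 430.0, against 1135 and 1212 in Col-0 (log2 change -1.51, SE 0.17). The other 2 were BR6OX1 (-1.44) and the receptor gene BRI1 (-1.05, and -0.97 without the first hac1hac5 library). At any size 13 of the 15 were lower at an adjusted p under 0.05, and 10 with total-count scaling.

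Of 17 gibberellin genes 1 rose and 4 fell, with a median log2 change of -0.03 and 3 higher and 4 lower at any size. GA20OX1, which makes gibberellin precursors in stems, had 16.14 and 20.8 normalized counts in hac1hac5, against 332.6 and 297.5 in Col-0 (log2 change -4.03, SE 0.22, adjusted p = 6.2e-06). GA2OX6, which inactivates gibberellins, rose to 1126 and 1468, against 198.1 and 200.7 in Col-0 (log2 change 2.68, SE 0.13). The DELLA repressor GAI had 1966 and 1862, against 5499 and 5721 in Col-0 (log2 change -1.55, SE 0.10). GA3OX1 (-1.24) and GA20OX2 (-1.11), both synthesis genes, also fell, so 3 synthesis genes were lower and 1 gene of inactivation was higher. GA20OX2 was called in none of the 4 tests that left out a library (-1.02 to -1.19). With total-count scaling 2 of 9 type-A cytokinin response regulators rose and none fell, ARR5 (1.14, against 0.96 in the test reported) and ARR7 (1.13, against 0.95). In the test reported they had 1 lower, RR16 (-1.16), which was not called without the second Col-0 (-0.98) or the second hac1hac5 library (-1.05).

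In 4 lists of wall loosening and wall proteins more members fell than rose. XTH enzymes cut and rejoin xyloglucan, and 11 of 30 fell and 2 rose, against 7 and 3 with total-count scaling. XTH33 had 19.1 and 12.71 normalized counts in hac1hac5, against 200.1 and 198.6 in Col-0 (log2 change -3.59, SE 0.53), and XTH16 had 149.2 and 131.4, against 783.7 and 846.6 in Col-0 (log2 change -2.53, SE 0.17). The touch-induced XTH22, also named TCH4, had 8850 and 13789, against 1905 and 1548 in Col-0 (log2 change 2.68, SE 0.24), and XTH18 was the other riser (1.90). Of 20 alpha-expansins, which loosen the wall at acid pH, 2 fell and none rose (10%, against the 5.53% of all genes that fell). EXPA8 had 2793 and 3207, against 12278 and 12426 in Col-0 (log2 change -2.04, SE 0.18), and EXPA16 had 256.7 and 328.0, against 1606 and 1737 in Col-0 (log2 change -2.52, SE 0.23).

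Arabinogalactan proteins, sugar-rich proteins of the wall and membrane, had 12 lower and 2 higher of 30, or 9 and 3 with total-count scaling. AGP1 was the large exception, with 6990 and 9757 normalized counts in hac1hac5 against 791.4 and 926.9 in Col-0 (log2 change 3.27, SE 0.23). AGP7 had 318.3 and 251.5, against 1357 and 1426 in Col-0 (log2 change -2.29, SE 0.23), and AGP27 had 7.93 and 16.65, against 48.28 and 54.65 in Col-0 (log2 change -2.06, SE 0.34). Of 17 fasciclin-like proteins, a branch of the same class, 6 fell and none rose. FLA8, among the 6, is also counted in the arabinogalactan list as AGP8. FLA2 had 1001 and 1135, against 5275 and 5669 in Col-0 (log2 change -2.36, SE 0.13), and FLA9 had 1837 and 1775, against 5908 and 6142 in Col-0 (log2 change -1.74, SE 0.17). FLA13 changed by -1.46 and was called in none of the 4 tests that left out a library (-1.32 to -1.6). Tubulins, the subunits of microtubules, had 1 lower of 15 by 2-fold, TUB5 (-1.10), while 13 were lower at any size (median -0.66) and 10 with total-count scaling. None of 10 cellulose synthases changed by 2-fold, and 1 rose with total-count scaling.

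Stomatal genes fell in their later stages and in guard cells. MUTE and FAMA are factors that act in turn after SPCH in the lineage that makes guard cells, and KAT1, HT1 and MYB60 act in the mature guard cell. KAT1, a potassium channel, had 801.3 and 885.6 normalized counts in hac1hac5, against 3192 and 3516 in Col-0 (log2 change -1.99, SE 0.11, adjusted p = 5.7e-06). FAMA had 224.1 and 305.0, against 747.0 and 798.3 in Col-0 (log2 change -1.56, SE 0.14). HT1, a kinase of the carbon dioxide response, had 63.86 and 77.82, against 187.5 and 186.8 in Col-0 (log2 change -1.40, SE 0.17). MYB60 had 127.8 and 154.6, against 351.0 and 304.0 in Col-0 (log2 change -1.21, SE 0.19). MUTE changed by -1.08 and was not called without the second Col-0 (-0.80), the first hac1hac5 (-1.02) or the second hac1hac5 library (-1.15).

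The early lineage genes did not pass. SPCH had 154.7 and 130.4 normalized counts in hac1hac5, against 162.3 and 175.9 in Col-0 (log2 change -0.25, adjusted p = 0.26). TMM, a receptor that spaces stomata, had 528.1 and 381.1, against 565.2 and 660.8 in Col-0 (log2 change -0.45, adjusted p = 0.052). EPF2, the peptide it perceives, had 67.01 and 54.8, against 59.88 and 66.46 in Col-0 (log2 change -0.06, adjusted p = 0.89; 0.12 with total-count scaling). In these whole-seedling samples, fewer cells of a type and less RNA per cell cannot be told apart.

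**Figure D5:**
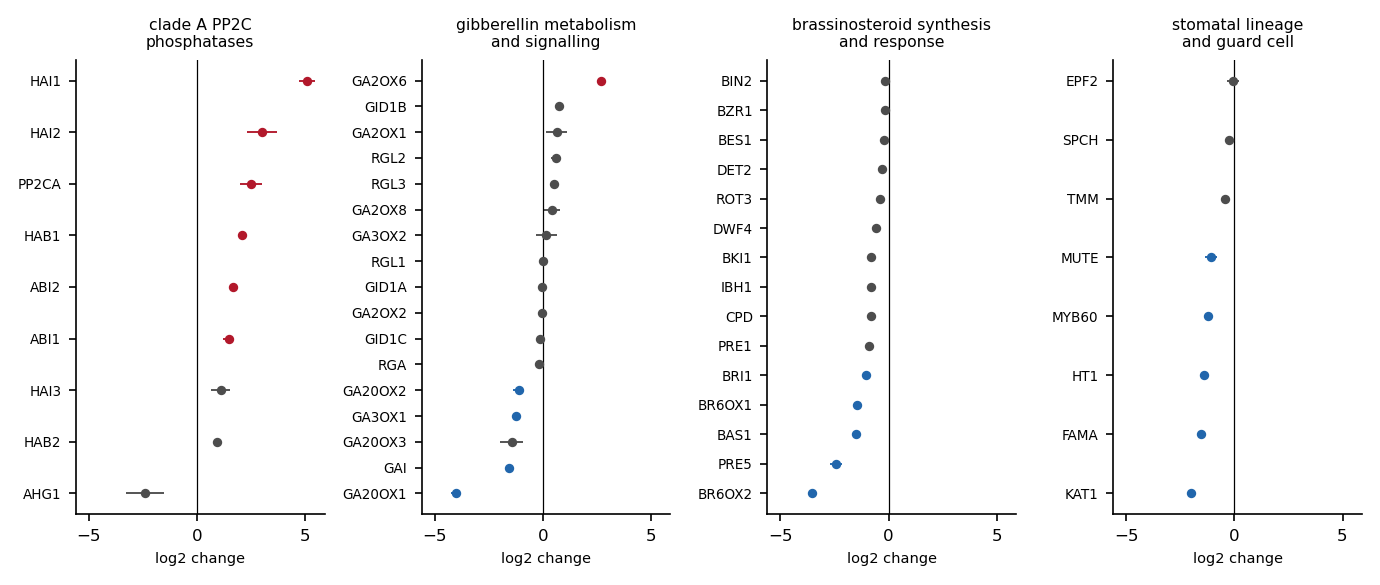
Log2 change of hac1hac5 over Col-0 with its SE (bars) for each member of the clade A phosphatase, gibberellin, brassinosteroid and stomatal lists. Red marks rose, blue marks fell and grey marks did not pass; all phosphatases but AHG1, which did not pass, lie to the right of 0, and all brassinosteroid and stomatal genes to the left.

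Markers of other organs and cell types are given beside these results. All 6 root markers, 8 vascular markers and the shoot meristem markers STM and KNAT1 stayed under 2-fold. At any size 3 root and 5 vascular markers were lower and none higher, against 2 and 2 lower with total-count scaling. Among root markers the range was -0.78 (EXPA7) to 0.06 (MYB36), and CASP1 of the endodermis had 878.3 and 888.6 normalized counts in hac1hac5, against 925.9 and 916.6 in Col-0 (-0.06, and 0.12 with total-count scaling). Vascular markers ran from -0.74 (SUC2, a phloem sucrose carrier) to -0.16 (CESA7 of the xylem wall, which was 0.02 with total-count scaling). Leaf mesophyll genes were uneven. CA1 fell as given above, RBCS1A had 325000 and 320900 in hac1hac5, against 522700 and 536500 in Col-0 (-0.71, adjusted p = 0.073), and the antenna gene LHCB1.3 had 537500 and 498900, against 580700 and 584700 in Col-0 (-0.17, adjusted p = 0.67; 0.01 with total-count scaling). Of the floral and pollen markers SEP3 fell, with 8.17 and 5.943 in hac1hac5 against 97.55 and 111.5 in Col-0 (log2 change -3.72, SE 0.34). AG was listed at 0 in both hac1hac5 libraries, against 5.799 and 5.38 in Col-0, and AP1 likewise, against 2.879 and 5.327. The other members of the list did not pass. PI had 14.06 and 33.33 in hac1hac5, against 12.57 and 11.82 in Col-0 (0.79, adjusted p = 0.2), and VGD1 of pollen (1.51) and AP3 (-1.23) were under 5 in every library. The call of AP1 was lost without the second Col-0 (-1.96), the first hac1hac5 or the second hac1hac5 library (-2.31 each).

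Seed storage genes varied within each genotype more than between them. CRA1 had 2836 and 846.3 normalized counts in hac1hac5, against 1551 and 2608 in Col-0 (-0.38, adjusted p = 0.62), and CRU3 had 165.8 and 19.96, against 134.2 and 831.8 in Col-0 (-2.50, adjusted p = 0.16). EM1, of late embryos, changed by 1.81 and was called in none of the 4 tests that left out a library (1.3 to 2.31). Of 10 reference genes used in Arabidopsis to normalize measurements none changed by 2-fold, and their log2 changes ran from -0.37 (GAPC2) to 0.08 (UBQ10). At any size 5 of the 10 were lower and none higher (median -0.20), and none was called with total-count scaling. UBC9 (-0.05), SAND (-0.15) and TIP41 (-0.14) were above 0 with total-count scaling (0.13, 0.03 and 0.04). The part of cell composition in the results above was not tested.

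In 3 lists of nutrient uptake and assimilation, the members that passed the 2-fold rule were lower. Of 11 genes of nitrate and ammonium assimilation 4 fell and none rose (median -0.90), and 1 fell with total-count scaling. ASN2, an asparagine synthetase, had 5067 and 5334 normalized counts in hac1hac5, against 14699 and 14047 in Col-0 (log2 change -1.47, SE 0.08, adjusted p = 7.4e-06). The nitrate transporter and sensor NRT1.1 had 3617 and 3815, against 8423 and 8202 in Col-0 (log2 change -1.16, SE 0.08). NIA2 is given above and NIA1, the other nitrate reductase, changed by -1.12. The sulfate list had 3 lower and none higher of 10 by 2-fold, but 4 higher and 4 lower at any size (median -0.07). APR1 (0.48), APR3 (0.53) and APS1 (0.40), enzymes that activate and reduce sulfate, were higher at adjusted p of 0.0026, 0.0074 and 0.0059. SULTR1;1, a root sulfate transporter, had 3.506 and 7.894, against 69.75 and 42.21 in Col-0 (log2 change -3.13, SE 0.51), and LSU2, a marker of sulfur deficiency, had 54 and 63.07, against 210.8 and 185.9 in Col-0 (log2 change -1.74, SE 0.22). LSU1 changed by -1.86 and was not called without the first Col-0 (-1.97), the second Col-0 (-1.75) or the second hac1hac5 library (-1.32). In the phosphate starvation list 3 of 16 fell, and 1 of 16 without the first Col-0 or either hac1hac5 library. PHT1;4, a phosphate transporter, had 231.0 and 236.8, against 551.8 and 611.5 in Col-0 (log2 change -1.31, SE 0.16). IPS1, a non-coding RNA of phosphate starvation, changed by -1.41 and was called in none of the 4 tests that left out a library (-1.09 to -1.73), and the galactolipid synthase gene MGD3 changed by -1.94 and was called in 1 of them.

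Transporters of organic nutrients held some of the steepest losses. UMAMIT proteins export amino acids, and 6 of 41 fell and 2 rose. UMAMIT17 had 5.414 and 5.145 normalized counts in hac1hac5, against 193.2 and 221.9 in Col-0 (log2 change -5.05, SE 0.24). UMAMIT14 had 24.72 and 9.895, against 259.8 and 312.0 in Col-0 (log2 change -4.09, SE 0.39), and UMAMIT36 had 86.76 and 79.91, against 814.8 and 737.5 in Col-0 (log2 change -3.20, SE 0.22). Of 21 sugar carriers 4 fell and 2 rose. SWEET15, a sucrose exporter of senescing leaves and seeds, had 278.8 and 439.9, against 1513 and 1797 in Col-0 (log2 change -2.23, SE 0.19), and STP13, a hexose importer of defence, had 771.0 and 754.2, against 265.9 and 217.1 in Col-0 (log2 change 1.66, SE 0.16). In the NPF and NRT2 list 4 of 30 fell and 2 rose, against 2 and 4 with total-count scaling. NPF1.2, a nitrate transporter of leaf veins, had 1163 and 1242, against 4530 and 4981 in Col-0 (log2 change -1.98, SE 0.08). NPF7.2, also named NRT1.8 and induced by stress, had 145.7 and 193.6, against 46.29 and 64.16 in Col-0 (log2 change 1.61, SE 0.24). Aquaporins had 4 lower of 31, TIP2;1, TIP1;2, NIP2;1 (-1.56, called in 1 of the 4 tests that left out a library) and SIP1;2 (-1.06, and -0.90 without the first Col-0 library).

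In the lists of plastid pathways few members passed the 2-fold rule, but many were lower at any size. Of 13 chlorophyll synthesis genes 2 fell (15.4%, against 5.53% of all genes), both light-dependent reductases of protochlorophyllide. At any size 9 of the 13 were lower and 1 higher, or 7 and 2 with total-count scaling. PORA had 122.1 and 105.6 normalized counts in hac1hac5, against 823.4 and 845.6 in Col-0 (log2 change -2.87, SE 0.12), and PORB had 10381 and 8895, against 20963 and 21539 in Col-0 (log2 change -1.14, SE 0.11; -0.96 with total-count scaling, when 1 of the 13 fell). No gene of photorespiration, the recycling of Rubisco's oxygenation product, changed by 2-fold, while 9 of 11 were lower at any size, and 7 with total-count scaling. In starch metabolism the beta-amylases BAM1 and BAM3, which release maltose, were the 2 of 18 that changed by 2-fold. At any size 3 of the 18 were higher and 8 lower, or 3 and 4 with total-count scaling. BAM1 had 10569 and 11937, against 3212 and 3250 in Col-0 (log2 change 1.80, SE 0.13), and BAM3, with 71.8% unshared windows, had 1639 and 1955, against 604.0 and 640.6 in Col-0 (log2 change 1.52, SE 0.12).

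In the lists of protective metabolites and antioxidants, the members that passed the 2-fold rule were higher. RS5, a raffinose synthase, had 4488 and 4502 normalized counts in hac1hac5, against 759.6 and 781.2 in Col-0 (log2 change 2.54, SE 0.10, adjusted p = 1.2e-06). GOLS2, which makes its galactinol substrate, had 3701 and 4397, against 1741 and 1984 in Col-0 (log2 change 1.12, SE 0.12), and 0.99 without the second hac1hac5 library, when 1 of these 6 genes was changed. Of 13 genes of reactive oxygen metabolism 5 rose and none fell. The superoxide dismutases CSD2 and CSD1 had 1367 and 1503, against 512.4 and 439.3 in Col-0 (log2 change 1.59, SE 0.10), and 1028 and 986.5, against 405.0 and 388.6 in Col-0 (log2 change 1.34, SE 0.08). RBOHD, the oxidase of the immune oxidative burst, had 2894 and 4173, against 1287 and 1343 in Col-0 (log2 change 1.40, SE 0.20), and the others were NDB2 (1.21) and AOX1A (1.12), of which AOX1A was not called without the second hac1hac5 library. Glutathione transferases of the tau and phi classes had 7 higher and none lower of 40, and 4 without the first Col-0 library. GSTU5 had 8495 and 9070, against 2903 and 2615 in Col-0 (log2 change 1.67, SE 0.08). At any size 12 of these 40 were higher and 4 lower, or 18 and 1 with total-count scaling. In the reactive oxygen list 7 of 13 were higher at any size and 2 lower, or 8 and 2 with total-count scaling. The 2 lower in the test reported were RBOHC (-0.72) and CAT3, with 48275 and 47782 in hac1hac5 against 90391 and 87838 in Col-0 (-0.89).

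The lists of secondary metabolism differed from each other. In the camalexin, wax and UGT lists 27.3%, 33.3% and 21.2% of members changed, against 12.7% of all genes. The phenylpropanoid and elongase lists lay below that share, at 11.8% and 5.26%. Tryptophan and camalexin synthesis had 2 higher and 1 lower of 11, or 3 and 0 with total-count scaling. At any size 6 of the 11 were higher and 1 lower (median 0.55), or 8 and 1 with total-count scaling. GSTF6 had 2252 and 1796 normalized counts in hac1hac5, against 762.5 and 820.9 in Col-0 (log2 change 1.34, SE 0.13). CYP71A12 changed by 1.52 and was not called without the first Col-0 (1.31) or the second hac1hac5 library (1.25), when 1 of the 11 was changed. PAD3, the last enzyme of camalexin synthesis, changed by -1.01 and was called in none of the 4 tests that left out a library (-0.73 to -1.28). In the wax and cutin list MYB96 rose as given above, and 1 of 9 was changed without the second Col-0 or the second hac1hac5 library. WSD1, a wax ester synthase, changed by 1.29 (1.23 and 0.99 without those libraries), and CER4, which makes primary alcohols, by -1.11 (-0.88 to -1.33 without 1 library, not called in 3 of the 4). Of 17 phenylpropanoid genes PAL3 had 195.6 and 219.9, against 484.1 and 540.7 in Col-0 (log2 change -1.3, SE 0.12), and CCR2 had 591.1 and 632.3, against 254.1 and 268.2 in Col-0 (log2 change 1.22, SE 0.11). UGT glycosyltransferases had 4 higher and 7 lower of 52, or 5 and 5 with total-count scaling, and 7, 5 and 4 changed members without the first Col-0, the second Col-0 and the first hac1hac5 library. UGT72E1 and UGT72E2, which glucosylate lignin precursors, had 1056 and 1163, against 3635 and 3741 in Col-0 (log2 change -1.73, SE 0.08), and 702.7 and 622.0, against 1782 and 2013 in Col-0 (log2 change -1.52, SE 0.10). One fatty acid elongase of 19, KCS3, rose (1.71), and without the second hac1hac5 library 2 of the 19 were changed.

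Chromatin and cell cycle genes rarely passed the 2-fold rule. None of 14 histone deacetylases, 7 Jumonji demethylases, 32 SET-domain proteins, 20 core histones, 9 MCM replication proteins or 30 autophagy proteins changed by 2-fold, where 12.7% of all genes did; at any size limma called 3, 2, 5, 8, 2 and 5 of them. With total-count scaling or without the first hac1hac5 library 1 autophagy gene was changed, and with no filter on low values 1 SET-domain gene. Of 29 cyclins CYCB1;5 rose and CYCD1;1 fell, against 2 higher and none lower with total-count scaling. CYCB1;5 had 121.1 and 107.3 normalized counts in hac1hac5, against 28 and 32.14 in Col-0 (log2 change 1.89, SE 0.23). CYCD1;1 had 673.7 and 609.2, against 1400 and 1426 in Col-0 (log2 change -1.14, SE 0.11).

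Changed genes had a single exon more often than other genes. Of the protein-coding genes that rose 28.7% had a single exon, as had 28.4% of those that fell, 13.4% of those that did neither and 15.3% of all tested. Among the 268 that rose at least 8-fold the share was 46.6%, and among the 86 that fell as far it was 26.7%. The share of genes that rose was 13.2% with 1 exon, 9.84% with 2, 6.47% with 3 to 5, 4.86% with 6 to 10 and 3.19% with 11 or more. The share that fell declined alike, from 10.4% with 1 exon to 7.85%, 5.94%, 3.47% and 1.72% in the same classes. Median transcript length was 1557 bases for genes that rose, 1443 for those that fell and 1672 for all.

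In a comparison that shares the hac1hac5 libraries with the one above, 1634 genes were higher in hac1hac5 than in med8med25 and 1074 lower, 6.84% and 4.49% of those tested and 11.3% together. Several genes that moved most in hac1hac5 differed from med8med25 as well. WAKL10 was at 182.7 and 148.4 normalized counts in hac1hac5 and 4.043 and 4.696 in med8med25 (log2 change 4.95, adjusted p = 1.0e-05), and CML38 at 3132 and 4241 in hac1hac5 and 108.7 and 44.47 in med8med25 (5.69, adjusted p = 1.7e-05). MYB75 was at 183.3 and 174.6 in hac1hac5 and 5.403 and 6.58 in med8med25 (4.69, adjusted p = 8.7e-06), and MAPKKK18 at 983.0 and 995.4 in hac1hac5 and 46.37 and 27.94 in med8med25 (4.74, adjusted p = 1.2e-05). RS5 was at 4488 and 4502 in hac1hac5 and 845.3 and 692.1 in med8med25 (2.55, adjusted p = 2.8e-06). On the lower side ASN2 was at 5067 and 5334 in hac1hac5 and 15111 and 16715 in med8med25 (-1.61, adjusted p = 8.3e-06), PORA at 122.1 and 105.6 in hac1hac5 and 606.8 and 706.9 in med8med25 (-2.52, adjusted p = 6.1e-06), and FLA2 at 1001 and 1135 in hac1hac5 and 5852 and 4422 in med8med25 (-2.25, adjusted p = 1.2e-05).

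At other genes the mutants lay close together. TGG2 was at 6814 and 10390 normalized counts in hac1hac5 and 7968 and 6954 in med8med25 (0.18, adjusted p = 0.48), and SEP3 at 8.17 and 5.943 in hac1hac5 and 7.713 and 4.647 in med8med25 (0.19, adjusted p = 0.7). EXPA16 was at 256.7 and 328.0 in hac1hac5 and 372.5 and 217.9 in med8med25 (0.03, adjusted p = 0.94), and UMAMIT14 at 24.72 and 9.895 in hac1hac5 and 16.92 and 13.08 in med8med25 (0.08, adjusted p = 0.9). NPF1.2 was at 1163 and 1242 in hac1hac5 and 1241 and 1163 in med8med25 (log2 change 0.00). PRE5 was at 23.61 and 17.01 in hac1hac5 and 15.08 and 22.61 in med8med25 (0.11, adjusted p = 0.78), and GAI at 1966 and 1862 in hac1hac5 and 2456 and 1989 in med8med25 (-0.21, adjusted p = 0.13). A p that misses the threshold does not show that the mutants were equal at these genes. The guard cell genes KAT1 (-0.73), HT1 (-1.0) and MYB60 (-1.12) were lower in hac1hac5 than in med8med25, with limma adjusted p of 0.0012, 0.0024 and 0.002, and MYB60 alone of the 3 passed the 2-fold rule. These genes were chosen for this comparison after their values were seen.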

How the data were processed

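Total RNA of 6 seedling libraries, 2 per genotype, was sequenced as single reads of 50 bases, per the labels' protocols. The authors deposited 1 table of a normalized signal per gene, called normalized counts here. HISAT2, featureCounts and edgeR, with build TAIR10, are named in the submitters' processing notes. Their versions, the gene annotation, the strand setting and the treatment of reads on several genes are not given in the sources used here. All 195288 deposited signal values matched, within a relative difference of 1e-06, those that a quantile adjustment gives from whole reads at a common dispersion of 0.00697 (100% of values), and depths are these recovered reads.

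Genotypes were compared with limma-trend (limma 3.58.1, R 4.3.3), tested on simulated data first, on log2(normalized count + 1). The fit held all 6 libraries with genotype as its only term (3 residual and 5.3 prior degrees of freedom) and the 23898 genes that reached 1 normalized count in 2 or more libraries. Every adjusted p is from limma, 2-sided, with the Benjamini-Hochberg adjustment over these genes. Log2 changes and their SE are on this scale, which understates changes of weakly expressed genes. Count tests were not the main test because the values are no raw counts. On the recovered reads limma voom was run, chosen after seeing the data.

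Gene names and models came from the RefSeq annotation of TAIR10.1, which matched all 32548 IDs and gave 10804 a symbol. The 64 lists held 1563 members (1545 distinct genes), 258 in 25 pathway or marker lists (7 matched by ID alone) and 1305 in 39 families matched by symbol or alias. Another 14 aliases that belong to other genes were left out. The genes named are the 12 largest gains and losses in normalized counts, up to 3 changed members per list with a mean of at least 50, genes at 3 or less in 1 genotype and 50 or more in the other, HAC1 and HAC5, the reference genes and the markers. Others were chosen after their values were seen. The lists and the members were chosen with earlier results of these data known. Alternatives covered scaling, filter, pseudocount, fold minimum, test, libraries in the fit and a replicate block. Another promoter that met the rule for those shown is not reported here.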

Additional observations from a re-analysis of the deposited data

How the results depend on the processing

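The 1709 genes that rose and the 1322 that fell in hac1hac5 against Col-0 stayed within 1.5 times of these counts under every setting tried except the fold minimum. With a 1.5-fold minimum 2703 rose and 2490 fell, and with none 4156 and 5010. For hac1hac5 against med8med25 (1634 higher and 1074 lower) the counts were 2873 and 2455 with 1.5-fold and 4888 and 4999 with none. Leaving out 1 library gave 1321 to 1499 rising and 984 to 1143 falling genes against Col-0. The split moved most with the scaling, to 2132 and 989 with total counts and to 2127 and 955 with limma voom, which also scales by totals. On recovered reads voom gave 1694 and 1317, and 97.5% and 98.0% of the genes called were called there too. Of the risen genes 100% kept their call with total counts and 99.2% with limma voom on deposited values. Of the fallen genes 74.8% and 72.2% did. Without 1 library smaller shares of the calls were kept than with recovered reads, in both directions, so similar counts do not mean the same genes. The same-numbered libraries did not deviate together (r = -0.020 between hac1hac5 and Col-0 over 18731 genes). With 1 difference per genotype this cannot show whether they were grown or prepared together, and the labels do not say. A replicate block gave 1650 and 1290. Between hac1hac5 and med8med25 r was -0.232, and a crossed pairing gave 1639 higher and 1088 lower, against 1573 and 1037 with the block as numbered. Of 64 lists the count of changed members moved by over 1.5 times in 50 with no fold minimum, in 33 with 1.5-fold and in 0 to 10 under any other setting.

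Of 167 genes named by rule and called, 136 kept their call under every alternative, 24 lost it without at least 1 library and 0 changed sign. Sign changes were seen at genes that were not called. With limma voom and with total-count scaling alike, UBC9 came to 0.13, CASP1 and EPF2 to 0.12, TIP41 (AT4G34270) to 0.04, SAND (AT2G28390) to 0.03, CESA7 (IRX3) to 0.02 and LHCB1.3 (CAB1) to 0.01. Without 1 library EPF2 ran from -0.20 to 0.09, VND7 from -0.54 to 0.14 and CRA1 from -1.25 to 0.50. The cause was not tested. Calls lost without 1 library included large changes, such as those of HAI2 and PP2CA, whose med8med25 libraries differed. Depth was not varied.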

Other observations

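Some changed genes lay side by side. In 9 places at least 4 consecutive tested protein-coding genes all rose in hac1hac5, and in 4 places at least 4 all fell. The longest risen run was of 6 genes on chromosome 1, AT1G72900 to AT1G72950, with log2 changes of 1.77 to 4.04, and the longest fallen run was of 6 on the same chromosome, AT1G29420 to AT1G29465, which holds the auxin-induced SAUR63, with log2 changes of -2.09 to -1.29. Other risen runs were the indole glucosinolate methyltransferases IGMT3, IGMT2 and IGMT4 with AT1G21140 (1.19 to 2.64), the purine permeases PUP8, PUP7 and PUP10 with AT4G18205 (1.84 to 3.68), the receptor-like kinases CRK10, CRK11 and CRK12 with EP1 (1.31 to 2.92), and JAZ10 with GILP, AT5G13200 and AT5G13210 (1.73 to 3.45). Neighbours of like sequence can share reads, and how such reads were counted is not stated. By chromosome, 6.08% (chromosome 3) to 7.85% (chromosome 5) of tested genes rose and 5.16% (chromosome 3) to 6.27% (chromosome 4) fell.

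Long non-coding RNAs in the annotation numbered 840 among tested genes, of which 94 rose and 34 fell in hac1hac5, 11.2% and 4.05%. Protein-coding genes numbered 22592, of which 7.05% rose and 5.61% fell. Of 88 miRNA genes 6 rose and 10 fell, and of 21 genes annotated as antisense RNA 4 rose. Without a stated strand setting, reads of an antisense gene and its partner cannot be told apart.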
